A study of Capra hircus with 2 samples.

Results

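The cluster of miR-424, miR-503, miR-542 and miR-450 was examined in small RNA libraries of sorted testicular cells. MicroRNAs (miRNAs) are small RNAs that pair with messenger RNAs and repress them, and each is cut from the 5p or the 3p arm of a hairpin. Entries were taken by name, as miR-424, miR-503, miR-542, miR-450a, miR-450b or miR-450c from any species, and their reads were summed per name and arm. This gave 11 arms under 6 names, of 1808 named arms in the deposited lists. The names were not chosen by their read counts, but earlier results of these data were known when they were chosen. The cells came from the testes of 3 Saanen dairy goats aged 5 months. They were kept overnight in culture to let Sertoli and myoid cells attach, and the loose cells were sorted with magnetic beads into CD49f-positive and CD49f-negative cells. CD49f, or integrin alpha-6, is a surface protein by which spermatogonial stem cells can be enriched. Each group had 1 library, although the study's description speaks of 3 repeats, and whether the goats were pooled is not stated. Differences between the groups therefore stand without replication, and p-values are not given. In sorted populations, fewer cells of a type and less RNA per cell cannot be told apart.

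The hairpins of this cluster lie side by side on the X chromosome and are known in human and mouse as products of a shared primary transcript. miR-424 belongs by its seed, the bases that choose its targets, to the miR-15 and miR-16 family, and miR-503 has a closely similar seed. Both are known from human and mouse cells as repressors of cell cycle genes, among them cyclin D1 and CDC25A. miR-542-3p is known from human cells to repress survivin, an inhibitor of cell death. The X chromosome is largely silenced in meiotic male germ cells.

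The listed sequences of the 4 most abundant arms and of miR-503-5p are shown because their seeds set which members can share targets. Each is the most copied sequence of its arm in the deposited lists, written 5′ to 3′ in DNA letters, with the seed (bases 2 to 8) in capitals. The listed sequence was the same in both libraries for each of them.
miR-424-5p: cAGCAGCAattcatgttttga
miR-503-5p: tAGCAGCGggaacagtactgcag
miR-542-3p: tGTGACAGattgataactga
miR-450a-5p: tTTTGCGAtgtgttcctaat
miR-450b-5p: tTTTGCAAcatgttcctgaat
The seeds of miR-424-5p and miR-503-5p differed by A8G, written as the base of the first miRNA, its position from the 5′ end and the base of the second. Those of miR-450a-5p and miR-450b-5p differed by G7A, and over 20 compared bases these arms had 5 differences. No pair of these 5 arms thus had the same seed. miR-450b-5p also differed from the cattle sequence under which it was listed, by T9C with the cattle base first.

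The 6 hairpins lay on the plus strand of chromosome X within 6838 bases, in coordinates of the deposited lists, whose goat genome build is not given in the sources used here. The miR-424 hairpin came first, at chrX:24347251-24347359, and the miR-503 hairpin followed after 225 bases, at chrX:24347585-24347687. After a gap of 4928 bases came the miR-542 hairpin, at chrX:24352616-24352724. The 3 miR-450 hairpins lay at the far end. In the RefSeq annotation of the goat assembly ARS1.2, the genes MIR450, MIR542 and MIR424 stand next to each other on chromosome X with no other listed gene between them. The hairpins differed in composition, with a GC content of 64.1% for miR-503, 49.5% for miR-424 and miR-542, and 26.4% for miR-450b.

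The miR-450b hairpin is shown whole because reads with its letters were also listed under other miR-450 names. Capitals mark the arms as the deposited lists give them.
miR-450b, chrX:24354002-24354088: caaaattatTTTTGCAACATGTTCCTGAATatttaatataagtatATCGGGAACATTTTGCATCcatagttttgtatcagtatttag
Both miR-450a hairpins hold the same 5p sequence, so its reads were split between them, with 5879.5 and 5860.5 reads in the CD49f-positive library, against 2001 and 1989 in the CD49f-negative library. These split values are no independent measurements, and miR-450a-5p is given as their sum. No hairpin named miR-450c was among the hairpins placed here: the reads under that name carry the name of a pig miRNA and were placed by the deposited lists on the 3p arm of a miR-450a hairpin.

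The CD49f-positive list held 8196507 reads of named miRNAs and the CD49f-negative list 3064462, so the CD49f-positive library was 2.67 times deeper and its intervals are narrower. All 11 arms together had 55406 reads in the CD49f-positive library, against 18731 in the CD49f-negative library. That was 0.676% of named miRNA reads in CD49f-positive cells (95% interval 0.670 to 0.682), against 0.611% in CD49f-negative cells (0.603 to 0.620). Intervals are exact Clopper-Pearson intervals of the reads rounded to whole numbers. They cover counting error only, because reads copied by PCR and carrying no molecular identifiers do not each stand for a separate molecule, and they say nothing of the spread between animals.

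The cluster's reads came mostly from 4 arms, miR-424-5p, miR-542-3p and the 5p arms of miR-450a and miR-450b, which held 96.1% of them in the CD49f-positive library, against 95.8% in the CD49f-negative library. Levels are given in RPM, reads per 1000000 named miRNA reads, with no correction for length, since mature miRNAs are of nearly equal length. miR-542-3p led in both libraries, at 2333 RPM in CD49f-positive cells (2300 to 2366), against 2511 in CD49f-negative cells (2455 to 2568). It stood at rank 30 of the named arms of the CD49f-positive library and at rank 36 of those of the CD49f-negative library.

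miR-450b-5p was at 2024 RPM in CD49f-positive cells (1993 to 2055), against 1352 in CD49f-negative cells (1311 to 1394). miR-450a-5p was at 1434 (1408 to 1460) in CD49f-positive cells, against 1304 (1264 to 1345) in CD49f-negative cells. In CD49f-positive cells the levels of these miR-450 arms were apart by more than their intervals, whereas in CD49f-negative cells the intervals overlapped. This holds for named reads only. With the reads of an unnamed entry over the miR-450b hairpin, described below, miR-450b-5p had 4718 reads in CD49f-negative cells, against 3996 of miR-450a-5p. miR-424-5p came next, at 703 (685 to 722) in CD49f-positive cells, against 686 (657 to 716) in CD49f-negative cells.

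The other 7 arms were far lower. miR-450b-3p had 986.7 reads, or 120 RPM, in CD49f-positive cells, against 312 reads, or 102 RPM, in CD49f-negative cells. miR-503-5p had 485 reads, or 59.2 RPM, in CD49f-positive cells, against 286 reads, or 93.3 RPM, in CD49f-negative cells. These arms kept the next places in both libraries, although their intervals overlapped in CD49f-negative cells. The remaining 5 arms, miR-424-3p, miR-450a-3p, miR-450c-3p, miR-542-5p and miR-503-3p, lay between 6.47 and 25.3 RPM in CD49f-positive cells and between 8.16 and 28.4 in CD49f-negative cells. In both libraries miR-424-3p was the highest of these and miR-503-3p had the lowest level, in CD49f-negative cells at the same level as miR-450a-3p. The order of the arms between those ends differed between the libraries, but with 25 to 30 reads per arm in the CD49f-negative library their intervals overlapped there.

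**Figure D1:**
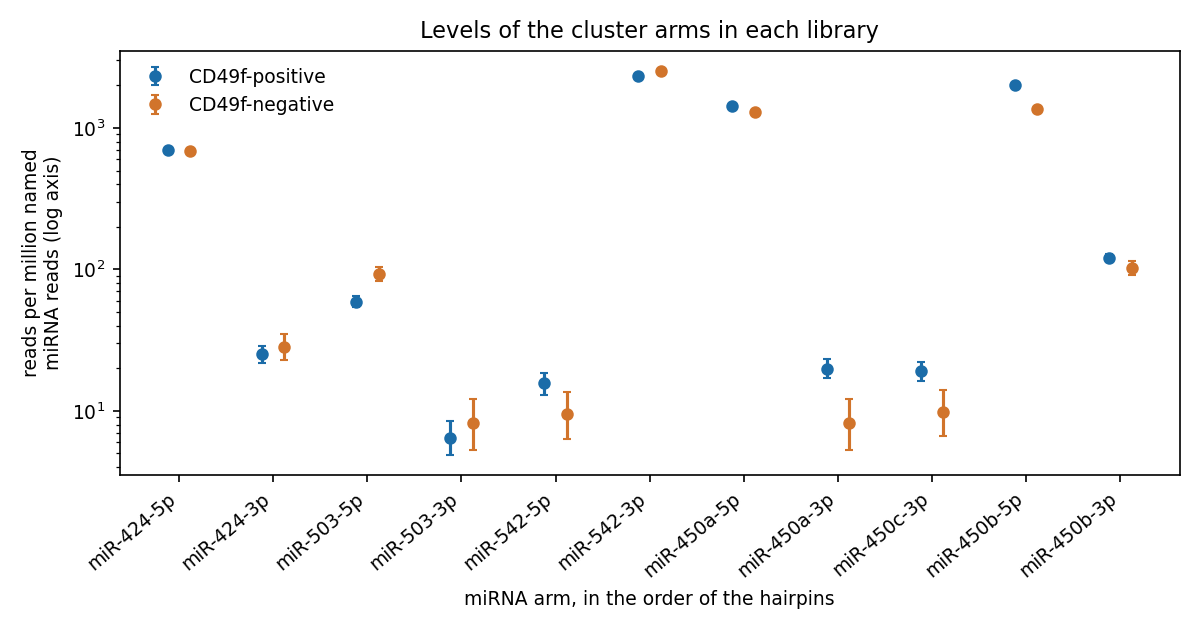
RPM (log axis) of the 11 arms in the CD49f-positive (blue) and CD49f-negative (orange) library, with 95% counting intervals. The 4 most abundant arms lie between 686 and 2511 RPM, and the other 7 at or below 120.

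Summed over all arms, the cluster was near equal shares in the sorted populations. Its share in CD49f-positive cells was 1.11 times that in CD49f-negative cells, a log2 ratio of 0.15 (0.12 to 0.17). This value moves with the scaling. TMM, a trimmed mean that gives less weight to a few dominant miRNAs, shifted all log2 ratios up by 0.45, to 0.59 for the cluster. Beside it, the median log2 ratio of all 298 named arms with at least 100 reads summed over both libraries was -0.43 by read total, and 0.02 by TMM. Of these 298 arms, 25.2% had a ratio above 1 with the read total.

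miR-424 and miR-503, the seed relatives at the first end of the cluster, did not have the same ratio. miR-424-5p had 5765 reads in CD49f-positive cells, against 2103 in CD49f-negative cells, a log2 ratio of 0.04 (-0.04 to 0.11), with an interval that includes equal shares, and 0.48 with TMM. miR-424-3p had 207 reads in CD49f-positive cells, against 87 in CD49f-negative cells, with a ratio of -0.17 (-0.54 to 0.21) that turned to 0.27 with TMM. miR-503-5p was the lowest of the measured arms, at -0.66 (-0.87 to -0.44), which is a share of 0.634 times that in CD49f-negative cells. With TMM it was at -0.21, with an interval of -0.43 to 0.004. Its partner miR-503-3p had 53 reads in CD49f-positive cells, against 25 in CD49f-negative cells, under the minimum of 100.

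miR-542 gave opposite signs on its arms with the read total. miR-542-3p, with 19119 reads in CD49f-positive cells, against 7695 in CD49f-negative cells, had a log2 ratio of -0.11 (-0.14 to -0.07), which turned to 0.34 with TMM. miR-542-5p, with 128 reads in CD49f-positive cells, against 29 in CD49f-negative cells, had one of 0.70 (0.13 to 1.36), or 1.15 with TMM.

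The miR-450 arms had ratios above 1. miR-450b-5p had 16590 reads in CD49f-positive cells, against 4143 in CD49f-negative cells, a log2 ratio of 0.58 (0.53 to 0.63). With TMM it was at 1.03, with an interval of 0.98 to 1.08. miR-450a-5p, with 11753 reads in CD49f-positive cells, against 3996 in CD49f-negative cells, was at 0.14 (0.09 to 0.19), and miR-450b-3p at 0.24 (0.06 to 0.43). The highest ratios of the cluster were those of the rare arms miR-450a-3p, at 1.26 (0.67 to 1.96), and miR-450c-3p, at 0.94 (0.39 to 1.57).

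**Figure D2:**
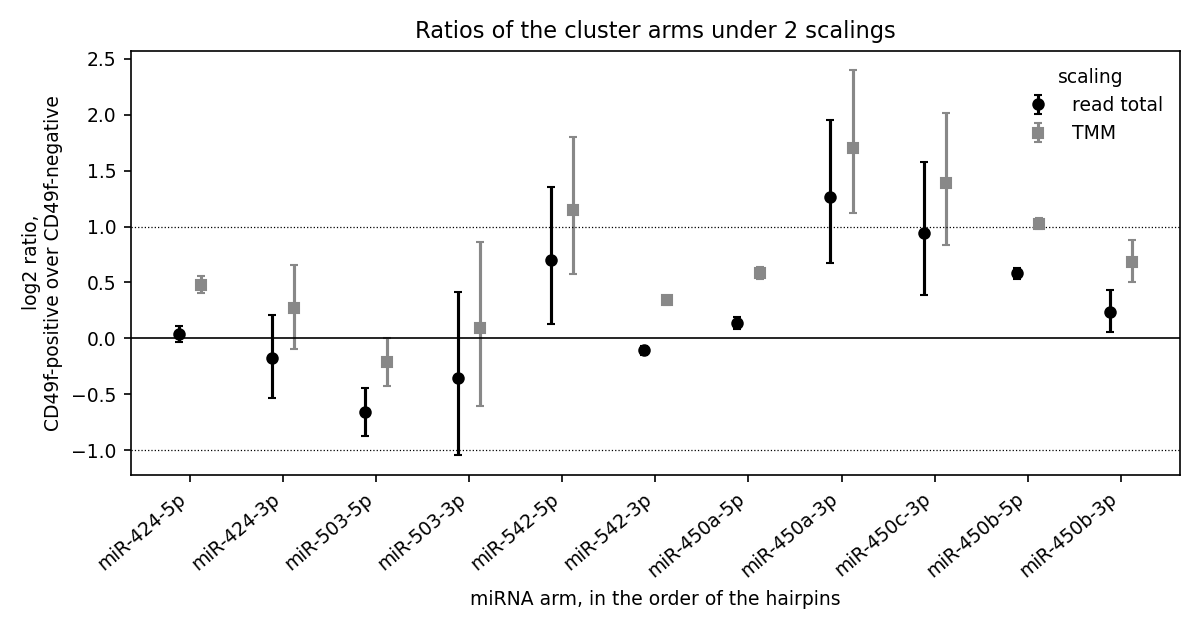
Log2 ratio (CD49f-positive cells over CD49f-negative) for each arm, with the read total (black circles) and with TMM (grey squares). Bars are 95% counting intervals, the solid line marks equal shares and the dotted lines 2-fold. miR-503-5p is lowest and miR-450a-3p highest under both scalings.

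An arm was called higher or lower when it had at least 100 reads over both libraries, differed by 2-fold or more, and had a 95% interval without equal shares. Of the 11 arms, 10 had enough reads. Of these, 1 was called higher, miR-450a-3p, and 0 lower, while among all 298 named arms 2.01% were called higher and 24.8% lower. The median log2 ratio of the 10 arms was 0.19 and that of all 298 was -0.43. With TMM 4 of the 10 arms were called higher, miR-450a-3p, miR-450b-5p, miR-450c-3p and miR-542-5p, and none lower, against 9.06% higher and 13.4% lower among all 298 arms. Several arms come from neighbouring or near-identical hairpins and are not independent. The call of miR-450a-3p ended when only entries at known hairpins or only reads with no mismatch were counted, where it had under 100 reads.

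The number of arms called depended on the scaling and the reads counted. With median-of-ratios scaling the same 4 arms as with TMM were called higher and 0 lower, against 11.4% higher and 9.4% lower among all arms. Without the 10 most abundant miRNAs in the total, 3 were called higher and 0 lower, against 5.37% higher and 17.4% lower, and miR-450b-5p was no longer among them. Over reads with no mismatch, 8 cluster arms were measured, with 1 called higher, miR-542-5p, and 0 lower, against 1.65% higher and 21.5% lower. Over the most copied sequence of each arm, 2 of 9 were called higher, miR-450a-3p and miR-450c-3p, and 0 lower, against 2.83% higher and 22.2% lower. Over known hairpins 0 of 9 were called either way, against 0.877% higher and 22.4% lower. With 1.5-fold in place of 2-fold, 3 were called higher, miR-450a-3p, miR-450c-3p and miR-542-5p, and 1 lower, miR-503-5p, against 8.05% higher and 42.6% lower.

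**Figure D3:**
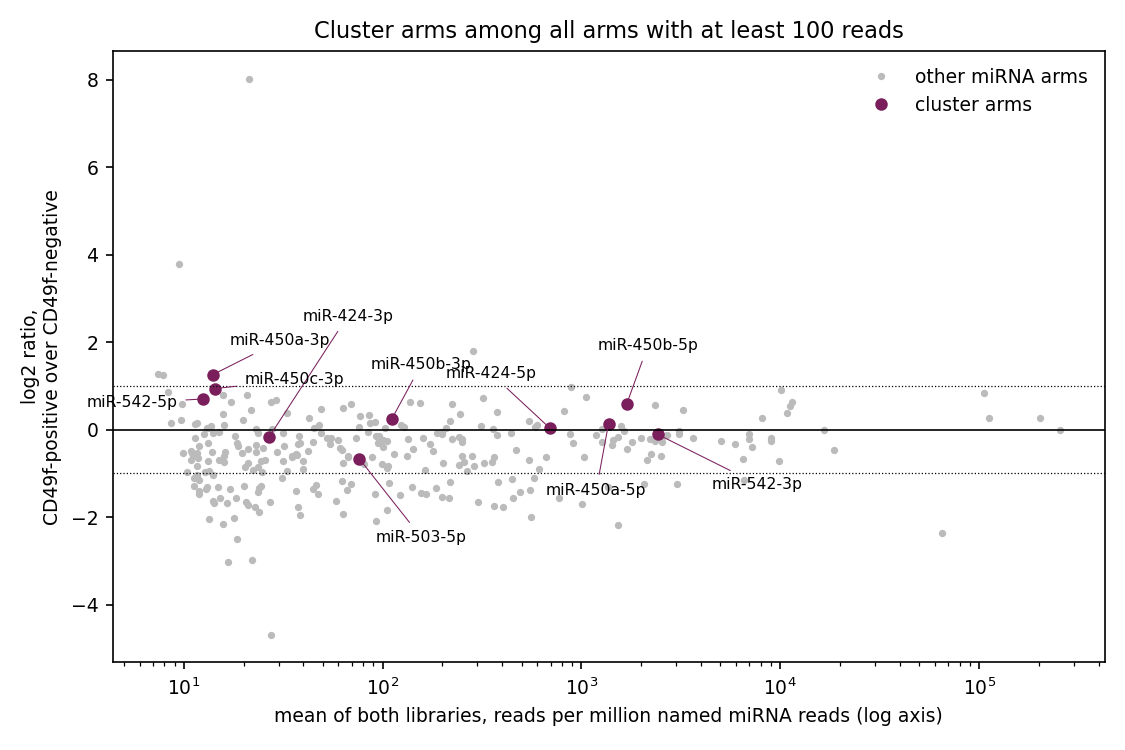
Log2 ratio (CD49f-positive cells over CD49f-negative) against the mean level (log axis) for the 298 arms with at least 100 reads, with the 10 measured cluster arms in purple. Of these 10 arms, 7 lie above the line of equal shares. The grey point near 8 had 0 reads in the CD49f-negative library, so its height depends on the 0.5 reads added to each count.

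Ratios between arms of the same library do not depend on the scaling. For every 100 reads of miR-424-5p there were 288 reads of miR-450b-5p in CD49f-positive cells, against 197 in CD49f-negative cells, a 1.46-fold difference (log2 0.55, 0.46 to 0.63). This and the later ratios of miR-450b-5p leave out the unnamed entry over its hairpin, described below. That entry held 7.14% of the 5p reads of both in CD49f-positive cells, against 12.2% in CD49f-negative cells. With it, the log2 ratio of miR-450b-5p by read total was 0.50 in place of 0.58. There were 204 reads of miR-450a-5p per 100 of miR-424-5p in CD49f-positive cells, against 190.0 in CD49f-negative cells, which is 1.07-fold (0.10, 0.01 to 0.19). miR-542-3p went the other way, with 332 in CD49f-positive cells, against 366 in CD49f-negative cells, or 0.906 times as many (-0.14, -0.22 to -0.06). Relative to miR-424-5p, the abundant arms thus differed between the libraries by less than 1.5-fold. The counting intervals left out equal ratios, but only narrowly for miR-450a-5p. Over reads with no mismatch, the log2 ratios of miR-450a-5p, 0.17 (0.12 to 0.23), and miR-424-5p, 0.12 (0.05 to 0.21), had overlapping intervals. miR-450b-5p against miR-542-3p differed more, with 86.8 reads per 100 in CD49f-positive cells, against 53.8 in CD49f-negative cells (0.69, 0.63 to 0.75).

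The difference was wider for miR-503-5p. It had 8.41 reads per 100 of miR-424-5p in CD49f-positive cells, against 13.6 in CD49f-negative cells, a log2 difference of -0.69 (-0.92 to -0.47), and the hairpins lie 225 bases apart. Between miR-450b-5p and miR-503-5p, the log2 difference was 1.24 (1.02 to 1.46). miR-450b-5p and miR-450a-5p, from neighbouring hairpins, also differed, with 141 reads of miR-450b-5p per 100 of miR-450a-5p in CD49f-positive cells, against 104 in CD49f-negative cells, a log2 difference of 0.45 (0.37 to 0.52). In these libraries miR-450b-5p made up 29.9% of the cluster's reads in CD49f-positive cells, against 22.1% in CD49f-negative cells. miR-542-3p made up 34.5% in CD49f-positive cells, against 41.1% in CD49f-negative cells.

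**Figure D4:**
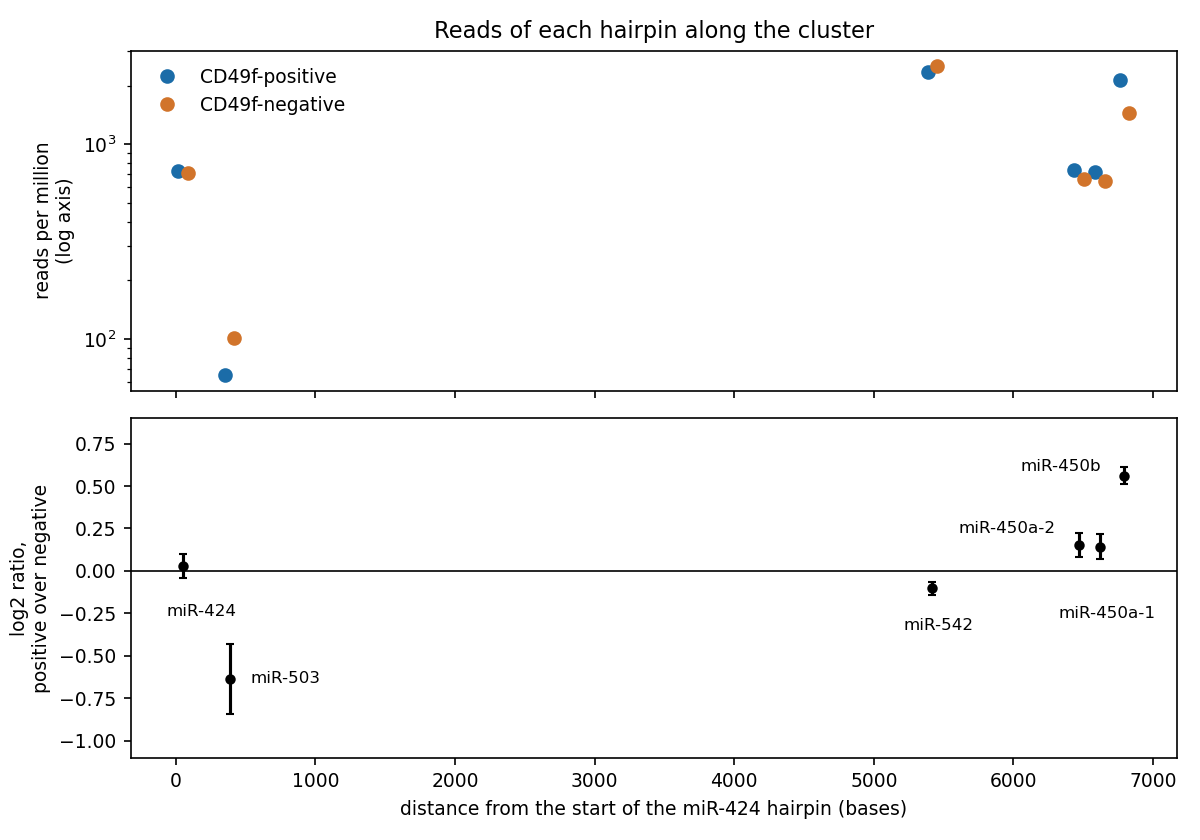
RPM (upper panel, log axis) and log2 ratio (CD49f-positive cells over CD49f-negative) with 95% counting intervals (lower panel) of the 6 hairpins, both arms summed, by distance from the start of the miR-424 hairpin. Blue and orange points are set slightly apart for sight. The miR-503 hairpin has the lowest ratio, -0.64, and the miR-450b hairpin, at the far end, the highest, 0.56.

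The most copied sequences of miR-450a-3p and miR-450c-3p, the arms with the highest ratios, carry the letters of the miR-450b hairpin. They are shown beside that of miR-450b-3p, with their seed in capitals.
miR-450b-3p: aTCGGGAAcattttgcatc
miR-450a-3p: aTCGGGAAcattttgcataa
miR-450c-3p: aTCGGGAAcattttgcat
The sequence listed for miR-450c-3p matched the miR-450b hairpin in all 18 bases, although the deposited lists place it on a miR-450a hairpin. Positions here count from the first base of the listed sequence, with the hairpin's base first. The sequence listed for miR-450a-3p, placed at no known goat hairpin by the deposited lists, matched miR-450b in its first 18 bases and differed there by C19A and C20A. It had 102 copies in CD49f-positive cells, against 15 in CD49f-negative cells, and the miR-450c-3p sequence had 101 in CD49f-positive cells, against 15 in CD49f-negative cells. All 3p sequences listed at these hairpins or names had 702 copies in CD49f-positive cells, against 190 in CD49f-negative cells. Those with at least the first 18 bases of miR-450b-3p held 98.4% of the copies in CD49f-positive cells, against 97.9% in CD49f-negative cells. Copies count only the listed sequence of an entry, so these are not shares of all 3p reads. The listed miR-450c-3p sequence has 1 mismatch, yet 50.3 of 156.3 reads of its entry in CD49f-positive cells had none. In CD49f-negative cells 14 of 30 had none. The sequence listed under miR-450b-3p had most of the copies, 441 in CD49f-positive cells, against 146 in CD49f-negative cells. It matched the miR-450b hairpin in all 19 bases, so its name and letters went together. For the most copied sequences under miR-450a-3p and miR-450c-3p they did not, since both had T3C against either miR-450a hairpin. The 3p reads under the 3 names were therefore also pooled. They numbered 1306 in CD49f-positive cells, against 367 in CD49f-negative cells. Their log2 ratio of 0.41 (0.24 to 0.58) became 0.86 under TMM, both below 2-fold. With the median of ratios it was 1.01, which is above 2-fold.

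An entry with no miRNA name overlapped the miR-450b hairpin, at chrX:24353891-24354151. Its listed sequences are shown because each differs from a miR-450b sequence by a changed or added end base, in capitals.
unnamed 5p: ttttgcaacatgttcctgaaA
unnamed 3p: atcgggaacattttgcatcA
The 5p sequence differs from the miR-450b-5p sequence above by T21A, at its last base, and the 3p sequence differs from the hairpin by C20A. The 5p entry had 1275 reads in CD49f-positive cells, against 575 in CD49f-negative cells, and the 3p entry 124 in CD49f-positive cells, against 49 in CD49f-negative cells. None of these reads matched without a mismatch. The 5p entry made up 7.14% of its reads and those of miR-450b-5p together in CD49f-positive cells (6.76 to 7.52), against 12.2% in CD49f-negative cells (11.3 to 13.2). Its own log2 ratio was -0.27 (-0.41 to -0.13), or 0.17 with TMM, against 0.58 and 1.03 for miR-450b-5p. With these reads added, miR-450b-5p was at 0.50 (0.46 to 0.55), or 0.95 with TMM, both under 2-fold, and at 1.10 with the median of ratios, which is above 2-fold. On the opposite strand, within the miR-542 hairpin, an entry named miR-3601 had 3 reads in each library, all with a mismatch.

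Each hairpin kept the same dominant arm in both libraries. The 5p arm held 96.5% of the reads of miR-424 in CD49f-positive cells (96.0 to 97.0), against 96.0% in CD49f-negative cells (95.1 to 96.8). For miR-503 it held 90.1% (87.3 to 92.5) in CD49f-positive cells, against 92.0% (88.4 to 94.7) in CD49f-negative cells. For both miRNAs the intervals of the libraries overlapped. miR-542 was the exception among the members, with 99.3% of its reads on the 3p arm in CD49f-positive cells, against 99.6% in CD49f-negative cells. Its 5p arm held 0.665% (0.555 to 0.790) in CD49f-positive cells, against 0.375% (0.252 to 0.539) in CD49f-negative cells, so these intervals did not overlap. The 5p arm of miR-450b held 94.4% (94.0 to 94.7) in CD49f-positive cells, against 93.0% (92.2 to 93.7) in CD49f-negative cells. These shares leave out 3p reads with miR-450b letters that were listed under miR-450a and miR-450c. For miR-450a the 5p arm held 98.6% in CD49f-positive cells, against 99.4% in CD49f-negative cells, but the most copied 3p sequence under that name carries the letters of miR-450b. Over entries at known hairpins the share was 99.8% in CD49f-positive cells, against 99.9% in CD49f-negative cells. As a measure across the lists, the log2 ratio of the 5p arm was compared with that of the 3p arm. The difference, 5p less 3p, was 0.81 for miR-542, 0.34 for miR-450b, 0.21 for miR-424 and -1.12 for miR-450a. Over 59 other miRNAs with at least 100 reads on each arm, the median absolute difference was 0.34 (quartiles 0.23 and 0.66). The miR-542 value rests on 29 reads of miR-542-5p in CD49f-negative cells, and those of miR-450a and miR-450b take 3p reads by name.

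Reads of the cluster matched the listed hairpins with no mismatch in 94.5% of cases in CD49f-positive cells (94.4 to 94.7), against 88.3% in CD49f-negative cells (87.8 to 88.7). For miR-424-5p the shares were 89.1% (88.3 to 89.9) in CD49f-positive cells, against 79.6% (77.9 to 81.4) in CD49f-negative cells, and for miR-542-3p they were 93.5% (93.1 to 93.8) in CD49f-positive cells, against 86.4% (85.6 to 87.2) in CD49f-negative cells. A lower share in the CD49f-negative library was also found over the whole list, with a median of 76.6% in CD49f-positive cells, against 71.2% in CD49f-negative cells over 287 other arms, and a higher value in CD49f-positive cells for 82.2% of them. Among the 10 measured cluster arms it was higher in CD49f-positive cells for 8. The exceptions were miR-450a-3p, at 11.7% in CD49f-positive cells, against 20.0% in CD49f-negative cells, and miR-450c-3p, at 32.2% in CD49f-positive cells, against 46.7% in CD49f-negative cells. miR-450b-5p was nearly free of mismatches, at 99.7% in CD49f-positive cells, against 98.8% in CD49f-negative cells, but the reads of the unnamed entry all had one. With those reads added, its share was 92.6% in CD49f-positive cells, against 86.7% in CD49f-negative cells, while that of miR-450a-5p was 94.4% in CD49f-positive cells, against 87.5% in CD49f-negative cells. Over reads with no mismatch alone, the log2 ratio of miR-450b-5p was at 0.52 (0.47 to 0.57), miR-424-5p at 0.12 (0.05 to 0.21), and miR-503-5p at -0.55 (-0.80 to -0.30). miR-542-5p was at 1.14 (0.45 to 1.98), and met the 2-fold rule from 114 reads in CD49f-positive cells, against 18 in CD49f-negative cells.

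**Figure D5:**
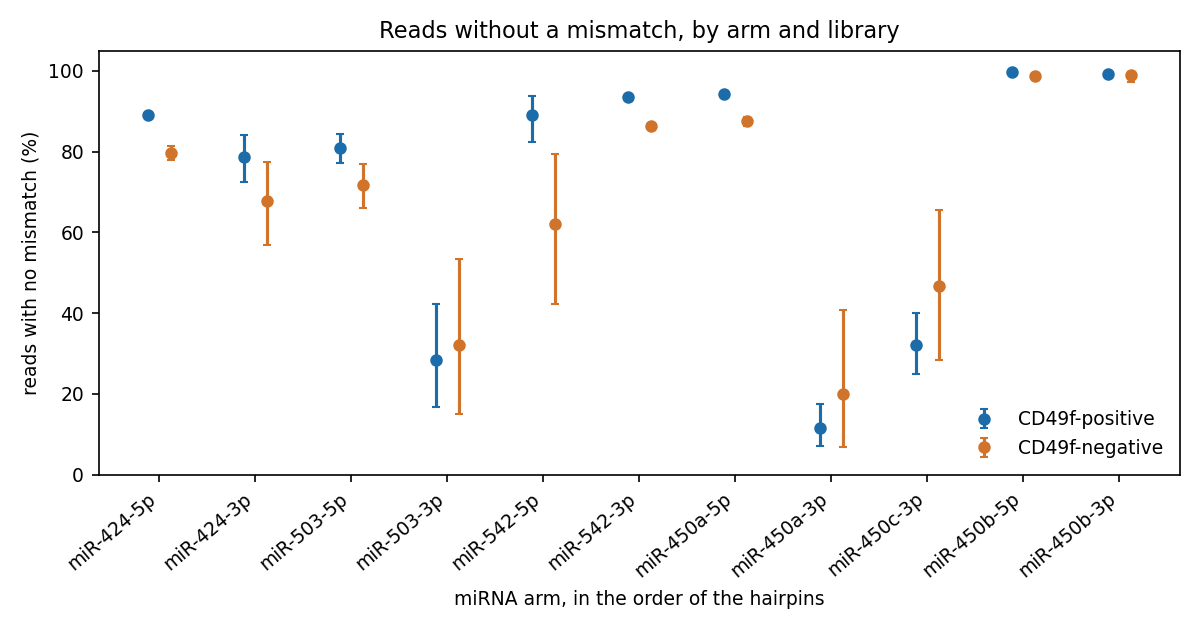
Share of reads with no mismatch (%) for each arm in the CD49f-positive (blue) and CD49f-negative (orange) library, with 95% counting intervals. The CD49f-positive share is higher for each abundant arm, and miR-503-3p, miR-450a-3p and miR-450c-3p lie below 50 in both libraries.

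The most copied sequence took a larger share of its arm in CD49f-positive cells for the abundant arms. It made up 64.8% of the reads of miR-424-5p in CD49f-positive cells, against 60.2% in CD49f-negative cells. For miR-450b-5p it made up 59.8% in CD49f-positive cells, against 56.8% in CD49f-negative cells, and for miR-542-3p 36.2% in CD49f-positive cells, against 34.8% in CD49f-negative cells. miR-542-3p thus had the most divided reads of the 4 abundant arms. For miR-503-5p it made up 28.0% in CD49f-positive cells, against 22.0% in CD49f-negative cells.

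miR-424-5p shared its seed with 4 other arms that had at least 100 reads, miR-16b-5p, miR-16a-5p, miR-15b-5p and miR-15a-5p. Of the reads of these 5 arms, miR-424-5p held 13.5% in CD49f-positive cells (13.2 to 13.8), against 10.9% in CD49f-negative cells (10.5 to 11.4). The list of seed relatives, which also holds miR-195 and miR-497, had 6 measured arms, with a median log2 ratio of -0.70 against 0.04 for miR-424-5p. Of these 6, 2 were called lower, miR-15b-5p at -1.56 and miR-15b-3p at -1.31, and none higher, against 24.8% lower and 2.01% higher among all 298 arms. miR-15b-3p, the opposite arm of its hairpin, is not a 5p arm like the others, and over the 5 measured 5p arms alone the median was -0.61 with 1 called lower. With TMM only miR-15b-5p was called lower, against 13.4% of all 298 arms. The median of the 6 was then -0.26, against 0.02 for all 298. miR-16b-5p was at -0.28 (-0.32 to -0.24) and miR-16a-5p at -0.22 (-0.26 to -0.18), and their intervals did not overlap that of miR-424-5p. miR-497-5p was at -0.61 (-0.73 to -0.49).

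Among other miRNA entries placed on chromosome X, 23 arms were measured, with a median log2 ratio of -0.02. Those with the most reads were let-7f-5p at 0.62, miR-1468-5p at 1.81, miR-224-5p at 0.73 and miR-452-5p at 0.08, from their reads at X-linked hairpins. For let-7f-5p these were 57721 of 114021 reads in CD49f-positive cells, against 14053 of 27661 in CD49f-negative cells. For miR-19b-3p, named next, they were 1084 of 2177, against 1090 of 2182. Multi-mapping reads are divided among entries, so these 2 ratios may not be those of the X-linked hairpins alone. Of the 23, 1 was called higher, miR-1468-5p, and 3 lower, miR-19b-3p at -1.43, miR-106a-5p at -1.32 and miR-660-5p at -1.24. With TMM 7 were called higher and none lower. Among all 298 named arms, 2.01% were called higher and 24.8% lower with the read total, and 9.06% higher and 13.4% lower with TMM. The ratios of the cluster arms, from -0.66 to 1.26, lay within those of the other X-linked arms, from -1.43 to 1.81. Across all 135 named arms outside the cluster with at least 1000 reads, the 4 with a log2 ratio nearest to that of the summed cluster were miR-2285k-3p (0.17), miR-28-5p (0.12), miR-194-5p (0.10) and miR-151-3p (0.20). This likeness is over 2 libraries and a single ratio.

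The libraries also differed in miRNAs used as markers of cell types, whose part in the cluster's values was not tested. miRNAs of meiotic and post-meiotic germ cells (miR-34b, miR-34c and the miR-449 miRNAs) summed to 22530 RPM in CD49f-positive cells, against 113729 in CD49f-negative cells. All 7 measured arms were called lower, against 24.8% of all 298 arms. miRNAs of smooth muscle and myoid cells (miR-143 and miR-145) summed to 225505 RPM in CD49f-positive cells, against 189428 in CD49f-negative cells. Most of that sum was miR-143-3p, at a log2 ratio of 0.26, while the median of the 4 measured arms was -0.25, miR-143-5p was at -0.76 and miR-145-5p was called lower at -1.24. Reads of endothelial miR-126 summed to 14349 RPM in CD49f-positive cells, against 7551 in CD49f-negative cells. Sertoli cell miR-202 summed to 320 RPM in CD49f-positive cells, against 823 in CD49f-negative cells, and mesenchymal miR-199a, miR-199b and miR-214 to 4890 RPM in CD49f-positive cells, against 5599 in CD49f-negative cells. The name miR-199c-3p is outside that list. It had 21217 reads in CD49f-positive cells, against 8580 in CD49f-negative cells, a log2 ratio of -0.11 (-0.15 to -0.08). Red blood cell miRNAs summed to 2963 RPM in CD49f-positive cells, against 3716 in CD49f-negative cells, and those of white blood cells to 197 RPM in CD49f-positive cells, against 248 in CD49f-negative cells. The white blood cell arms did not go the same way. miR-155-5p was at a log2 ratio of 0.59 (0.35 to 0.85), while miR-142-5p was at -0.79, miR-150-5p at -0.72 and miR-142-3p at -0.96. None of these marker names was at 0 in either library.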

How the data were processed

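Small RNA was sequenced from CD49f-positive and CD49f-negative goat testicular cells, 1 library each, and samples were grouped by the surface marker in their labels. The authors placed reads on known mammalian hairpins, a goat genome and expressed sequences, per the file headers. The sources used here do not give the aligner, the miRBase release or the genome build. The authors deposited expected counts per arm, in which multi-mapping reads are divided among entries, and this shifts values between near-identical arms. The deposited copies of a listed sequence are whole read counts, and the deposited GC content of a hairpin is a percent. The values carry no normalization. Interval length matched the listed sequence for 480 of 480 placed known hairpins.

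Reads were summed per name and arm, without species prefix or copy number. Names that lack an arm took the arm with more reads over both libraries. Ratios are shares of named miRNA reads with 0.5 reads added, with exact conditional binomial 95% intervals. Intervals of ratios between arms of the same library are normal approximations from the reciprocal read counts. TMM factors came from edgeR 4.0.16 and median-of-ratios factors from DESeq2 1.42.0, on arms with at least 10 reads in rounded counts. Other steps used Python 3.11.15, SciPy 1.17.1 and R 4.3.3, and calling was tested on simulated data. All 11 arms are named; of other lists, arms with at least 100 reads, at most 4 per list, by reads, and the 4 arms of nearest ratio. miR-15b-3p, miR-19b-3p, miR-106a-5p and miR-660-5p were named after their values were seen, because they were called. The members and lists were chosen with earlier results of these data known. The sequences of the miR-450a hairpins are not reported here.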

Additional observations from a re-analysis of the deposited data

Results flagged for a closer look

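Reads in the entry without a miRNA name over the miR-450b hairpin lie outside the comparison of named miRNAs and exceed the 3 reads that a count of 0 allows. Its 5p arm had 1275 reads in CD49f-positive cells, against 575 in CD49f-negative cells, and its 3p arm 124 in CD49f-positive cells, against 49 in CD49f-negative cells.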

How the results depend on the processing

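The summed cluster stayed above equal shares under each alternative. Its log2 ratio was 0.59 with TMM, 0.74 with the median of ratios, 0.45 without the 10 most abundant miRNAs in the total and 0.17 over reads with no mismatch. The median of all measured arms was 0.02, 0.17, -0.12 and -0.32 under the same settings, in that order. The number of cluster arms called higher was 4 with TMM, against 9.06% of all measured arms, and 4 with the median of ratios, against 11.4%. It was 3 without the 10 most abundant, against 5.37%, and 3 with a 1.5-fold rule, against 8.05%. Over the most copied sequence alone it was 2, against 2.83%, and over known hairpins 0, against 0.877%. By read total it was also 0 with the 3p arms of miR-450a, miR-450b and miR-450c pooled. With the median of ratios the pooled 3p arms were above 2-fold, at 1.01. Over reads with no mismatch the 1 arm called was miR-542-5p in place of miR-450a-3p, with 1.65% of all measured arms called higher. At 1.5-fold, 1 arm was called lower, miR-503-5p, against 42.6% of all measured arms. The median log2 ratio of the cluster arms was 0.79 with the median of ratios, against 0.17 for all measured arms. The share of cluster reads with no mismatch in CD49f-positive cells was 94.8% over known hairpins, and with the unnamed reads added it was 92.2% in CD49f-positive cells, against 85.4% in CD49f-negative cells. Adding the unnamed reads and pooling the 3p arms were chosen after seeing the data. miR-424-3p and miR-542-3p turned above equal shares with TMM, the median of ratios and the total without the 10 most abundant, and miR-503-3p with TMM and the median of ratios. miR-424-3p did so also over the most copied sequence, at 0.41. No paired analysis was possible because each group had 1 library. Arms with 25 to 30 reads in the CD49f-negative library have intervals over 1 log2 unit wide.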
